A study of Mus musculus with 6 samples.

Results

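The cyclin-dependent kinase (CDK) inhibitor family of the mouse comprises 7 genes, *Cdkn1a*, *Cdkn1b*, *Cdkn1c*, *Cdkn2a*, *Cdkn2b*, *Cdkn2c* and *Cdkn2d*, which were found by exact gene name among the 55421 genes of the table. Their transcripts were measured by RNA-seq in splenic B cells activated ex vivo for 24 h in medium with 5 μg/ml of LPS plus 5 ng/ml of IL-4. WT cells came from 3 CD21-cre mice, and hnRNPL-deficient cells from 3 hnRNPL F/F CD21-cre mice, in which Cre removes the loxP-flanked *Hnrnpl* gene, which encodes an RNA-binding protein that regulates splicing. Both groups thus carry the CD21-cre transgene, and by the methods of the study both also carry the Rosa mT/mG reporter, were on the C57BL6/J background, and were sorted as GFP+ cells, meaning cells in which Cre had acted. Males and females older than 6 weeks were used. CD21-cre follows the *Cr2* promoter, which is active mostly in mature peripheral B cells, although the study notes excision in some other tissues during development. There was 1 library per mouse, and no unstimulated cells were analysed here.

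CDK inhibitors are small proteins that hold the kinases of the cell cycle in check. The CIP/KIP proteins, p21 (*Cdkn1a*), p27 (*Cdkn1b*) and p57 (*Cdkn1c*), bind complexes of a cyclin with its CDK and act mainly on those of CDK2. The INK4 proteins, p16 (*Cdkn2a*), p15 (*Cdkn2b*), p18 (*Cdkn2c*) and p19 (*Cdkn2d*), bind CDK4 and CDK6 themselves and keep them from D-type cyclins, and a resting B cell has to overcome these brakes to leave quiescence after stimulation.

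Libraries held between 40395186 and 75180749 reads on genes, the fewest in hnRNPL-deficient library 3. *Hnrnpl* itself, the deleted gene, ranged from 24174 to 25580 normalized counts in WT libraries and from 1297 to 2178 in those of hnRNPL-deficient cells, as the labels say. The 6 B cell markers were all present, with a summed level of 246920 to 322000 in WT and 249460 to 300400 in hnRNPL-deficient libraries, and among them *Cr2*, the source of the Cre promoter, rose (log2 fold change 0.85, adjusted p = 0.0444 from limma). All 5 T cell markers and all 4 neutrophil markers stayed below 10 normalized counts in every library. Of 4 macrophage and monocyte markers *Adgre1* rose from 236 to 315 in WT to 1217 to 1369, which took the summed level of that list from 260 to 331 in WT up to 1239 to 1382, while *Lyz2* and the other markers stayed low. *Prf1* (NK cell list) rose and *Jchain* (plasma cell list) fell. The summed level of the 3 stromal and endothelial markers was 2517 to 2666 in WT and 3403 to 4208 in hnRNPL-deficient libraries, nearly all of it *Pecam1* (log2 fold change 0.53, adjusted p = 0.0188 from limma, under 1.5-fold). The part of these genes in the results below was not tested. *Xist* was high in 1 library of each group (WT library 3 and hnRNPL-deficient library 2) and under 10 in the others.

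Across the 7 inhibitors the transcripts of p21 and p15 rose in hnRNPL-deficient cells and none fell. *Cdkn1a* was 10.1-fold higher (ratio of means) and became the most abundant inhibitor transcript per length, a place held by *Cdkn1b* in WT cells, and *Cdkn2b* was 2.79-fold higher from a low level. *Cdkn1b*, *Cdkn2c* and *Cdkn2d*, which were all well measured, did not pass the test, and neither did *Cdkn2a* and *Cdkn1c*, which were near the limit of what these libraries could count. Values are normalized counts, meaning reads divided by a size factor for each library. A gene was called higher or lower at an adjusted p under 0.1 from limma on log2(normalized count + 1) and a fold change of at least 1.5. All 7 genes reached the mean of 10 normalized counts that the test required, *Cdkn1c* only because of the hnRNPL-deficient libraries, so that its difference carries no weight as support and counts over the 7 are a description. Of the 17640 genes tested, 7.28% were called higher and 4.08% lower, against 2 of 7 and 0 of 7 inhibitors. In 4 of 7 inhibitors every hnRNPL-deficient library was above every WT library, which held for 17.7% of all tested genes, and the mean log2 value was higher in hnRNPL-deficient cells for 7 of 7, against 47.3% of all. The median log2 fold change was 1.17 over the 7 inhibitors, which is the value of *Cdkn1c* itself, 0.94 over the other 6, and -0.03 over all tested genes. Because whole populations were sequenced, more cells with a transcript and more transcript per cell cannot be told apart.

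**Figure D1:**
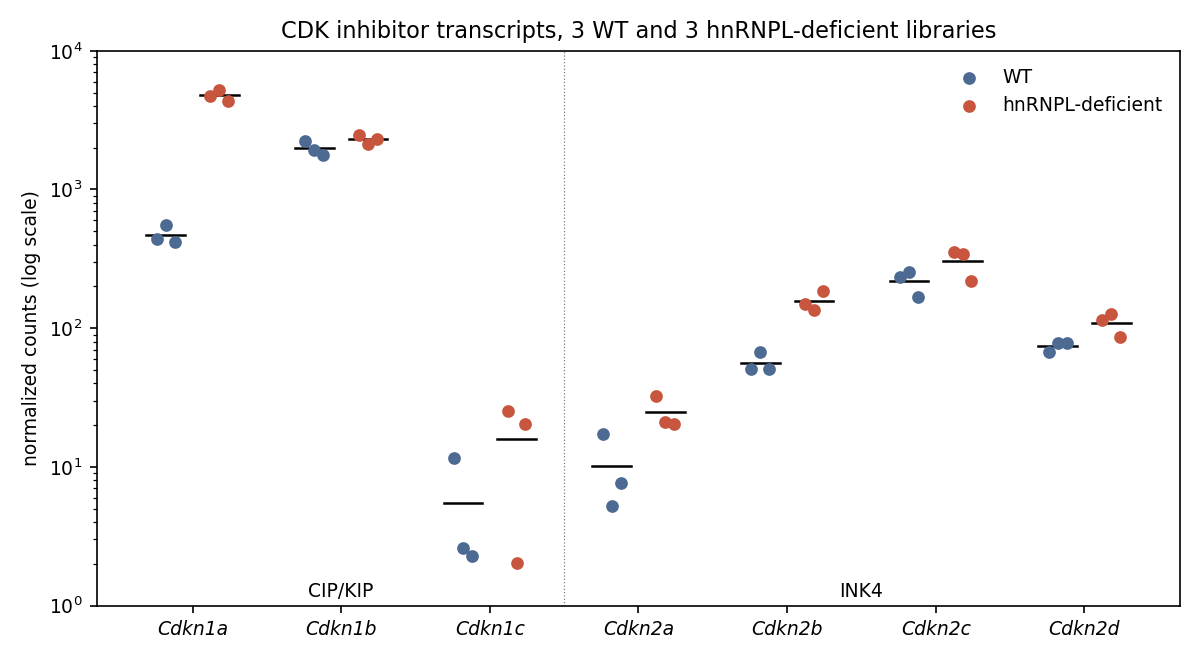
Normalized counts (log scale) of the 7 CDK inhibitor genes, with 1 point per library for 3 WT and 3 hnRNPL-deficient mice and a line at each mean. The points of the 2 groups are far apart for *Cdkn1a* (421 to 553 against 4376 to 5193), apart for *Cdkn2b* (50.5 to 67.4 against 135 to 186), and overlap for *Cdkn1b*, *Cdkn1c* and *Cdkn2c*.

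*Cdkn1a* (ENSMUSG00000023067.14, plus strand, chr17:29090976-29100727 in GRCm38) encodes p21, which stops CDK2 complexes, binds the replication clamp PCNA, and is a classical target gene of p53. Its normalized counts were 439.8, 553 and 421 in WT libraries 1, 2 and 3, and 4739, 5193 and 4376 in hnRNPL-deficient libraries 1, 2 and 3. The lowest hnRNPL-deficient library was thus 7.91 times the highest WT library, and the spread within a group was small beside that gap, with an SD of 71.7 around a mean of 471 in WT and of 409 around 4769.5 in hnRNPL-deficient cells (n = 3 mice each). The log2 fold change was 3.34 (standard error 0.136, 95% interval 3.03 to 3.65, adjusted p = 2.11e-05 from limma), the 32nd highest of the 17640 tested genes. It stayed between 3.27 and 3.46 over 21 other settings of the analysis, in all of which it was called. Counting is not a limit here, since each library held at least 379 reads of the gene.

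RefSeq gives *Cdkn1a* 2 start sites, and the 150 bases before each are shown because the upstream one holds the binding motif of p53, the factor *Cdkn1a* is best known to respond to. Both are on the plus strand of GRCm38.p6. The upstream stretch is chr17:29090829-29090978, with the p53 response element in capitals, and the downstream stretch is chr17:29093619-29093768, in which the capitals mark matches of GGGCGG, the core of a GC box, or of the TATA motif TATAA.
Cdkn1a upstream start: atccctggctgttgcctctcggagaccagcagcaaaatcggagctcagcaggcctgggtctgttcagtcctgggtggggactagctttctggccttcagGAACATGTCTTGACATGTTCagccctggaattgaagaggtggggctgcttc
Cdkn1a downstream start: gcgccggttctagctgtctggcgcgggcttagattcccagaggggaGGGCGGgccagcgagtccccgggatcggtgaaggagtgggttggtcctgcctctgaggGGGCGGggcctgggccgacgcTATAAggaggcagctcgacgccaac
The capitals in the upstream stretch run from 51 to 32 bp before the start site and match a pair of adjacent p53 decamers of 20 bases with 1 mismatch. Such an element, with at most 1 mismatch allowed and the C and G at the core of each decamer fixed, was found in 16 of 32851 RefSeq windows of 250 bases before a start site (0.0487%), and in no other window of an inhibitor gene. GGGCGG was found, on either strand, in 32.7% of the windows and TATAA in 22.8%. Of the 16 windows with the p53 element, those of 5 tested genes were *Calhm2*, *Cdkn1a*, *Gm15987*, *Mthfd1* and *Rps27l*. *Cdkn1a* and *Gm15987* (log2 fold change 0.81) were called higher, and *Rps27l* (0.44), *Calhm2* (-0.19) and *Mthfd1* (-0.25) were not called. A motif is a match of letters and does not show that a factor was bound.

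*Cdkn1b* (ENSMUSG00000003031.14, plus strand, chr6:134920401-134925513) encodes p27, the inhibitor typical of resting lymphocytes, whose protein is degraded as cells enter the cycle. Its WT libraries had 2230.5, 1936 and 1772 normalized counts and its hnRNPL-deficient libraries 2477, 2121 and 2312, and the groups overlapped, the lowest hnRNPL-deficient library lying below the highest WT library. The means were 1979 ± 232 and 2303 ± 178 (SD, n = 3 mice each), and the log2 fold change came to 0.22 (standard error 0.120, 95% interval -0.05 to 0.50, adjusted p = 0.274 from limma). In fold terms the interval ran from 0.965 to 1.41, so that these libraries allow anything from a slight decrease to an increase of 1.41-fold. The gene was called in none of 21 other settings.

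*Cdkn1c* (ENSMUSG00000037664.13, minus strand, chr7:143458339-143461050), an imprinted gene that encodes p57, was close to undetected. WT libraries had 11.6, 2.59 and 2.29 normalized counts and hnRNPL-deficient libraries 25.2, 2.02 and 20.6, which stand for 10, 3 and 3 reads and 28, 2 and 15 reads. The hnRNPL-deficient libraries disagreed among themselves more than the groups did, as library 2 was the lowest of all 6 and libraries 1 and 3 the highest. The log2 fold change of 1.17 had a standard error of 0.896 and a 95% interval from -0.87 to 3.22 (adjusted p = 0.437 from limma), so no difference was detectable at this depth. With each library left out in turn it ranged from 0.61, without hnRNPL-deficient library 1, to 2.16, without hnRNPL-deficient library 2 (adjusted p = 0.723 and 0.101 from limma). edgeR's quasi-likelihood test was run without hnRNPL-deficient library 2, although whole reads were recovered for that library too. On the other 5 libraries it called *Cdkn1c* higher (2.19, adjusted p = 0.0935), and DESeq2 on the same libraries did not (2.13, adjusted p = 0.147).

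**Figure D2:**
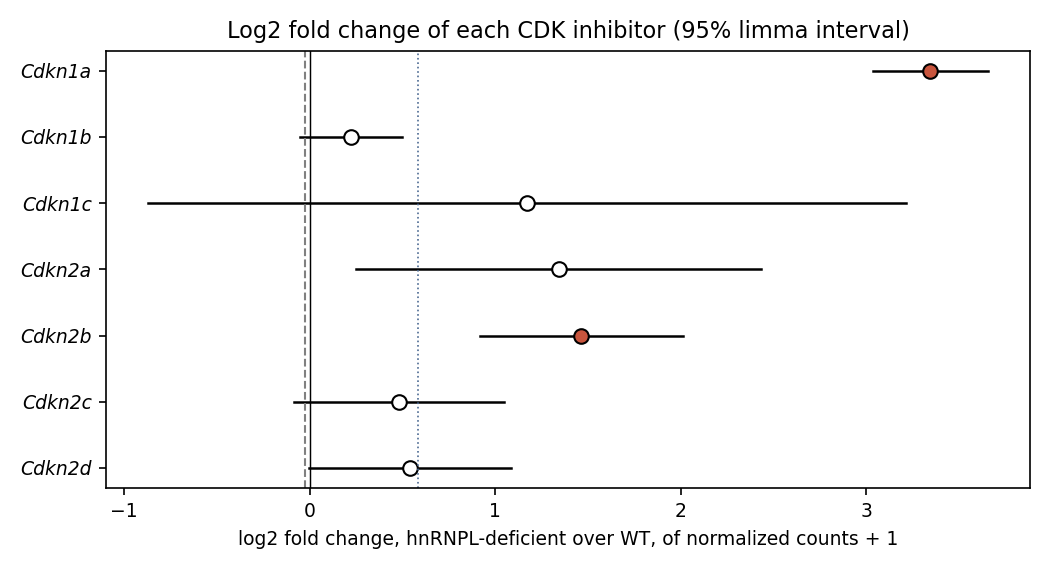
Log2 fold change (hnRNPL-deficient over WT, of normalized counts + 1) of each CDK inhibitor with its 95% interval from limma, n = 3 mice in each group. Filled points mark the called genes *Cdkn1a* (3.34) and *Cdkn2b* (1.46). The dotted line marks the 1.5-fold threshold, the dashed line the median of all tested genes (-0.03), and the interval of *Cdkn1c* is the widest.

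Of the INK4 genes, *Cdkn2b* (ENSMUSG00000073802.5, minus strand, chr4:89306299-89311039) encodes p15, which is known as a target of TGF-β signals. It had 51.1, 67.4 and 50.5 normalized counts in WT libraries, against 149.7, 135 and 186 in those of hnRNPL-deficient cells. Every hnRNPL-deficient library was at least 2.01 times the highest WT library. The means were 56.3 ± 9.63 and 157 ± 26.4 (SD, n = 3 mice each), which gave a log2 fold change of 1.46 (standard error 0.241, 95% interval 0.92 to 2.01, adjusted p = 0.00761 from limma). It was called in all of 21 other settings, with log2 fold changes from 1.33 to 1.61 and adjusted p values up to 0.0438. The 150 bases before its start site, chr4:89311033-89311182 on the minus strand of GRCm38.p6, are given for comparison with those of *Cdkn1a*, the other called inhibitor, and hold no base in capitals because none of the motifs searched for was found, that is, neither the p53 element nor GGGCGG, nor any match of the TATA motif or of the motifs in the sentences after the sequence.
Cdkn2b start: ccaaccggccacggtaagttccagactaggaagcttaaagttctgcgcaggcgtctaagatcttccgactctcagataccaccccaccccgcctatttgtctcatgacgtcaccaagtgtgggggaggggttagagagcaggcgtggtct
TGTTTA, the core that FOXO proteins bind, occurred on either strand in 12.0% of all windows. The E-box of MYC, which reads CACGTG on both strands, occurred in 6.02%. Among the 6 inhibitor genes with a window, the FOXO core was found for *Cdkn1b* and the E-box for none.

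*Cdkn2a* (ENSMUSG00000044303.6, minus strand, chr4:89274471-89294653) lies 11.6 kb from *Cdkn2b* and makes 2 unrelated proteins, p16 and p19ARF, from different first exons. Values per gene do not separate them. Its normalized counts were 17.4, 5.19 and 7.65 in WT and 32.5, 21.2 and 20.6 in hnRNPL-deficient libraries, from 15, 6 and 10 reads and 36, 21 and 15 reads. The groups did not overlap, but by a margin of only 1.18 times. The log2 fold change was 1.34 (standard error 0.478, 95% interval 0.25 to 2.43), and the gene missed the threshold with an adjusted p of 0.112 from limma. It was called in 3 of 20 other settings, among them the fit without WT library 1, the highest of its group (log2 fold change 1.78, adjusted p = 0.0416 from limma).

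*Cdkn2c* (ENSMUSG00000028551.14, minus strand, chr4:109660876-109667189) encodes p18, which is known for its role in the cell cycle exit of plasma cells. The WT libraries had 232, 254 and 167 normalized counts of it and the hnRNPL-deficient libraries 353, 345 and 221. Library 3 was the lowest of its group in both, and the groups overlapped. The log2 fold change was 0.48 (standard error 0.247, 95% interval -0.08 to 1.05, adjusted p = 0.25 from limma). *Cdkn2d* (ENSMUSG00000096472.2, minus strand, chr9:21288410-21291407) encodes the INK4 protein p19, which is not the ARF protein of the same size. Its normalized counts were 67.3, 77.8 and 78.0 in WT and 115, 127 and 86.4 in hnRNPL-deficient libraries. Here the groups did not overlap, by a margin of 1.11 times, with hnRNPL-deficient library 3, the shallowest, nearest to WT. The log2 fold change was 0.54 (standard error 0.239, 95% interval -0.01 to 1.08, adjusted p = 0.187 from limma). Neither gene was called in any of 21 other settings. With the replicate number as a block, *Cdkn2c* passed the p threshold (adjusted p = 0.0497 from limma) but not the 1.5-fold one. For a single gene, an exact two-sided permutation test of 3 against 3 libraries cannot go below 0.1, the value it gave for *Cdkn1a*, *Cdkn2a*, *Cdkn2b* and *Cdkn2d*, and it gave 0.2 for *Cdkn1b*, 0.4 for *Cdkn1c* and 0.3 for *Cdkn2c*.

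To set the inhibitors beside each other, normalized counts were divided by the exon length of each gene. In WT cells *Cdkn1b* led with 435 ± 51.1 normalized counts per kb (SD, n = 3 mice), followed by *Cdkn1a* (133 ± 20.2), *Cdkn2c* (81.0 ± 16.9), *Cdkn2d* (47.3 ± 3.89), *Cdkn2b* (40.5 ± 6.93), *Cdkn2a* (8.60 ± 5.51) and *Cdkn1c* (2.696 ± 2.595). Neighbors in this order kept it in every WT library, but the ranges over libraries overlapped for *Cdkn2d* and *Cdkn2b* and for *Cdkn2a* and *Cdkn1c*. In hnRNPL-deficient cells *Cdkn1a* led with 1342 ± 115 normalized counts per kb, ahead of *Cdkn1b* (506 ± 39.1). *Cdkn2c* (114 ± 27.6) and *Cdkn2b* (113 ± 19.0) followed and could not be ordered, *Cdkn2c* being the higher one in 2 of 3 libraries, and then *Cdkn2d* (69.7 ± 13.4), *Cdkn2a* (21.1 ± 5.71) and *Cdkn1c* (7.82 ± 6.02). The ratio of *Cdkn1a* to *Cdkn1b* per kb was 0.253, 0.366 and 0.304 in WT and 2.45, 3.14 and 2.42 in hnRNPL-deficient libraries. In other words p27 transcripts outnumbered p21 transcripts in every WT library, and the reverse held in every hnRNPL-deficient library.

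The summed level of all 7 inhibitors was 800.3, 779 and 663 normalized counts per kb in WT and 2230.3, 2253 and 2038.5 in hnRNPL-deficient libraries, a ratio of means of 2.91. The 3 CIP/KIP genes together went from 570.2 ± 56.3 to 1856 ± 94.0, and the 4 INK4 genes from 177 ± 21.5 to 318 ± 26.3 (SD, n = 3 mice each). *Cdkn1a* made up 84.8% of the rise of the total, *Cdkn2b* 5.08% and *Cdkn1b* 4.99%. The share of *Cdkn1a* in the total was 17.8% ± 2.26 in WT and 61.7% ± 2.76 in hnRNPL-deficient cells, and that of *Cdkn1b* was 58.2% ± 3.36 and 23.3% ± 2.31. The share of *Cdkn2b* was 5.43% ± 0.819 and 5.24% ± 1.19, because the total rose by about as much as the gene itself. These sums describe transcripts only, and proteins were not measured in these libraries.

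**Figure D3:**
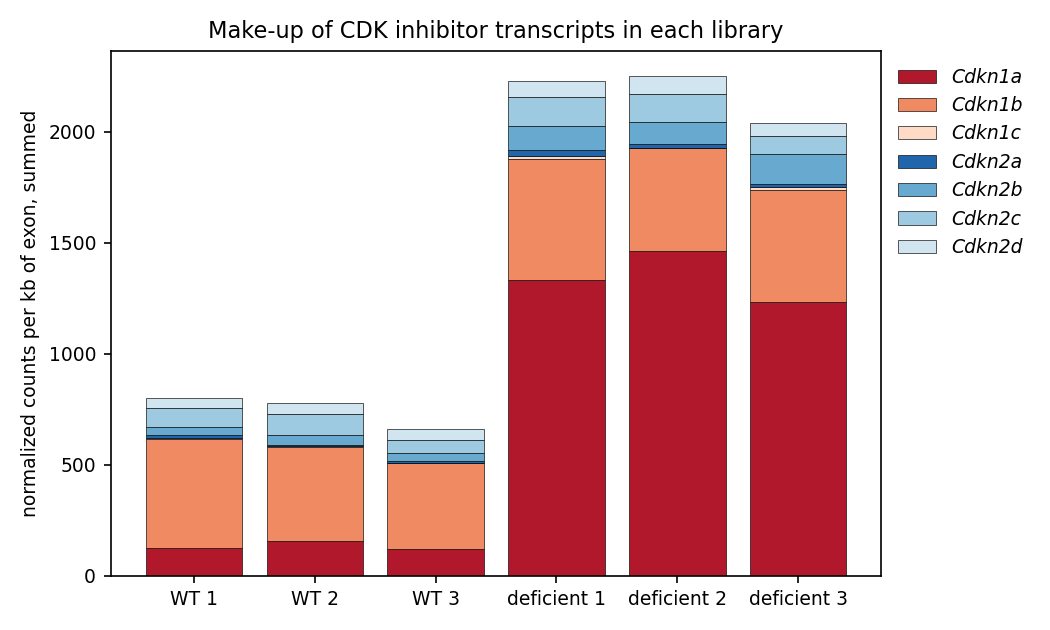
Summed normalized counts per kb of exon of the 7 CDK inhibitor genes in each of the 6 libraries, stacked by gene from *Cdkn1a* at the bottom to *Cdkn2d* at the top. The WT bars, between 663 and 800.3, are mostly *Cdkn1b*, and the hnRNPL-deficient bars, between 2038.5 and 2253, are mostly *Cdkn1a*.

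The genes around the inhibitors were examined next. Within 100 kb of the 7 genes lay 52 genes outside the family, of which 26 were tested, 3 were called higher and 1 lower. Over all tested genes 7.28% were called higher and 4.08% lower, so these counts are a description and no result about position. *Cdkn2a* and *Cdkn2b* also lie within that distance of each other. Around *Cdkn1a*, 3 of 7 tested genes rose. All 3 had WT means below the minimum that the test required and reached it only because of the hnRNPL-deficient libraries. As for *Cdkn1c*, their differences thus carry no weight as support, and the count of 3 is a description. *Trp53cor1*, a long noncoding RNA known as lincRNA-p21, lies on the opposite strand, 11.8 kb from *Cdkn1a* on its upstream side. Its normalized counts were 0, 13.8 and 8.41 in WT and 316, 339 and 458 in hnRNPL-deficient libraries (adjusted p = 0.00403 from limma). *1700023B13Rik*, a transcript of unclear status, overlaps *Cdkn1a* on the other strand, and its values were 0, 1.73 and 0.765 in WT and 24.3, 13.1 and 28.8 in hnRNPL-deficient libraries (adjusted p = 0.00521 from limma). Reads were counted by strand, and how many from *Cdkn1a* reached its antisense partner was not tested. *Cpne5*, which encodes a copine, a calcium-dependent membrane-binding protein, lies 54.8 kb away and rose from 7.78 ± 1.59 to 32.6 ± 0.921 (SD, n = 3 mice each; log2 fold change 1.95, adjusted p = 0.00958 from limma).

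The other tested genes around *Cdkn1a* were not called. *Stk38*, a kinase gene (log2 fold change 0.33, adjusted p = 0.0542 from limma), and *Srsf3*, a splicing factor gene (-0.34, adjusted p = 0.0892 from limma), passed the p threshold but not the 1.5-fold one. *Gm16196* was at -0.85 and the ribosomal pseudogene *Rpl35a-ps3* at -0.21. Around *Cdkn2a*, *Mtap* (93.4 kb away), which encodes a methionine salvage enzyme and is often lost with *CDKN2A* in human tumors, fell from 12783, 10204 and 9415 in WT to 1868, 1783 and 1667 normalized counts in hnRNPL-deficient libraries (log2 fold change -2.60, adjusted p = 3.18e-05 from limma). *Mtap* thus fell and *Cdkn2b* rose on the same stretch of the chromosome. *Cdkn2b* and *Mtap* are the only called genes within 100 kb of *Cdkn2a*. No gene was called around the other inhibitors. Around *Cdkn1b* 6 genes were tested, with log2 fold changes of 0.57 for *Crebl2* (adjusted p = 0.0693 from limma, under 1.5-fold), 0.48 for the long noncoding RNA *Lockd*, -0.05 for *Ddx47*, -0.44 for *Gpr19*, -0.53 for *2810454H06Rik* and -0.72 for *Apold1*. Around *Cdkn1c* 3 were tested, *Nap1l4* (-0.10), *Gm23297* (-0.18) and *Cars* (-0.50, adjusted p = 0.0558 from limma), and around *Cdkn2c* only *Faf1* (-0.04). Around *Cdkn2d* 8 were tested, and values are given for some of them. *Kri1*, 0.44 kb away, was at 0.07, and *Atg4d* (0.18), *Gm16754* (-0.02), *Ap1m2* (-0.05), *Slc44a2* (-0.11), *Keap1* (-0.36) and *Pde4a* (-0.36) lay further off.

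**Figure D4:**
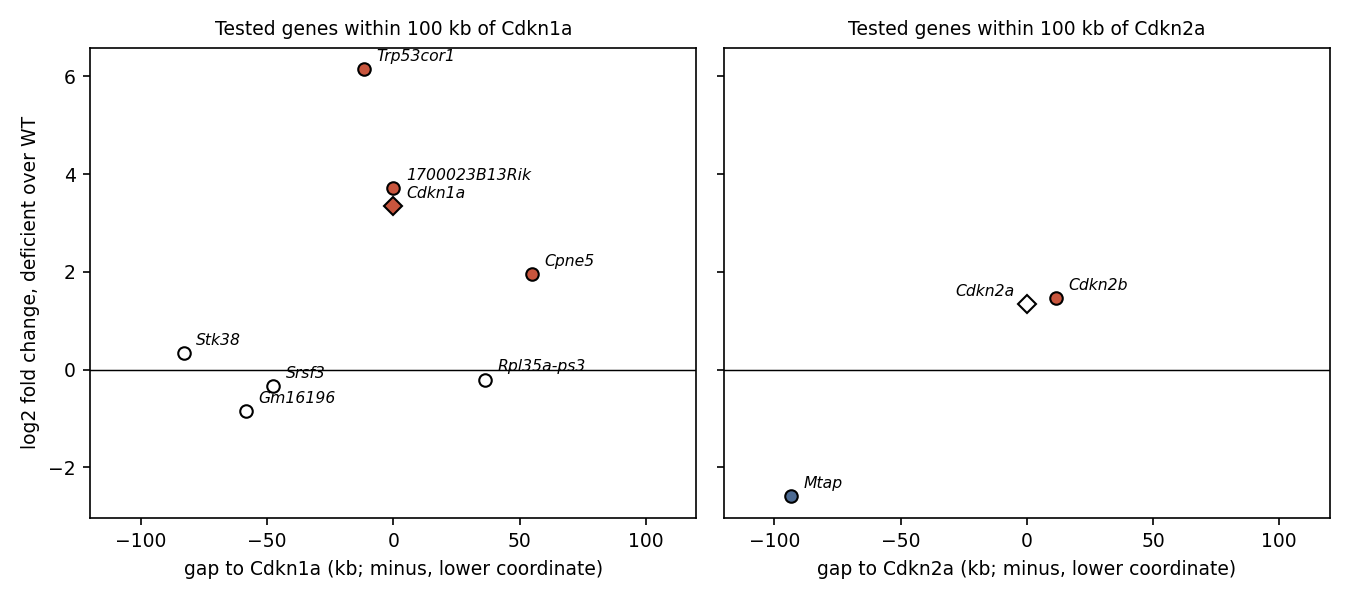
Log2 fold change (hnRNPL-deficient over WT, of normalized counts + 1) of the tested genes within 100 kb of *Cdkn1a* (left) and *Cdkn2a* (right), against the gap between the genes in kb, with the inhibitor itself as a diamond at 0. Red marks genes called higher, blue genes called lower and white genes not called, and the only called decrease is that of *Mtap* (-2.60).

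Each tested gene among the kinases and cyclins that the inhibitors act on was either called lower or not called. Of 16 genes 15 were tested (*Ccnd1*, the D-type cyclin that B cells use least, was too low), 0 were called higher and 2 lower, and the median log2 fold change was -0.45 with 13 of 15 below 0. For all tested genes the shares were 7.28% called higher and 4.08% lower. Their median was -0.03, and 47.3% of them had a higher mean log2 value in hnRNPL-deficient cells. *Ccnd2*, the main D-type cyclin induced in activated B cells and a partner of CDK4 and CDK6, fell from 190356, 152627 and 143519 to 85345.5, 73939 and 67868 normalized counts (log2 fold change -1.09, adjusted p = 0.00344 from limma). The study names *Ccnd2* for these same libraries, so its call here is not independent of that report. *Cdc25a*, the phosphatase that activates CDK2, fell by 0.64 on the log2 scale (adjusted p = 0.0178 from limma). The targets of the INK4 proteins themselves were not called, with log2 fold changes of -0.46 for *Cdk4* (adjusted p = 0.105 from limma) and 0.11 for *Cdk6*, nor was *Ccnd3* (-0.11). *Cdk2*, the main target of p21 and p27, was at -0.17, *Pcna* at -0.49 and *Ccna2* at -0.45.

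Of 16 tested factors in the turnover of p21, p27 and p57 proteins, 0 were called higher and 1 lower (median -0.13). These counts stand beside 7.28% and 4.08% of all tested genes. The one that fell was *Dtl*, the substrate receptor by which the CUL4-DDB1 ubiquitin ligase destroys p21 on replicating DNA, from 11076, 8378 and 8562 in WT to 6797, 5923 and 5337 normalized counts in hnRNPL-deficient libraries (log2 fold change -0.63, adjusted p = 0.0241 from limma). *Skp2*, the receptor for p27, was at -0.47 with adjusted p = 0.0463 from limma, short of 1.5-fold. *Psme3* (-0.38), which helps the proteasome to degrade p21, was likewise past the p threshold alone (adjusted p = 0.0705 from limma). So were, in the other direction, *Rchy1* (0.45, adjusted p = 0.0578 from limma), a ubiquitin ligase gene, and *Cul4a* (0.29, adjusted p = 0.0957 from limma), a scaffold of the ligase that uses DTL. *Ddb1* (-0.14), *Cul4b* (-0.13), *Cul1* (-0.24), *Rbx1* (-0.09) and *Skp1a* (-0.20) were not called.

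Of 34 tested genes listed as regulators of the inhibitor genes, 3 were called higher and 5 lower (median -0.04). The shares over all tested genes were 7.28% and 4.08%. Of the 5, 1 is *Hnrnpl* itself, the deleted gene, whose fall was fixed by the design. *Foxo3*, a forkhead factor known to activate *Cdkn1b*, rose by 0.89 on the log2 scale (from 2001, 2094 and 2007 normalized counts to 4023, 3823 and 3450, adjusted p = 0.00159 from limma), while *Cdkn1b* was not called. Of the other forkhead genes listed, *Foxo1* (0.45, adjusted p = 0.0163 from limma) passed the p threshold but not the 1.5-fold one. *Foxo4* (0.20) passed neither. *Bcl6*, a repressor known to act on *Cdkn1a*, rose by 0.64 (adjusted p = 0.0111 from limma), and *Mdm2*, the ubiquitin ligase of p53 and itself a p53 target, rose by 0.66 (adjusted p = 0.00374 from limma). *Kdm2b*, a chromatin factor known to repress *Cdkn2b* and *Cdkn2a*, fell from 8968, 8182 and 8362 to 5366, 5366 and 4742 normalized counts (log2 fold change -0.72, adjusted p = 0.00312 from limma). *Tgfb1*, the ligand of the TGF-β pathway that induces *Cdkn2b*, fell by 0.60 on the log2 scale (adjusted p = 0.0366 from limma), *E2f1* by 0.81 and *Klf4*, an activator of *Cdkn1a*, by 1.19 from a low level. Receptors and SMADs of the TGF-β pathway were not called, with log2 fold changes between -0.21 and 0.10 for *Tgfbr1*, *Tgfbr2*, *Smad2*, *Smad3* and *Smad4*. *Sp1* (0.07), *Kmt2a* (0.22), *Suz12* (-0.20) and *Trp53* (-0.26, adjusted p = 0.237 from limma) were not called either. Nor was *Myc* (-0.44, adjusted p = 0.0976 from limma), which passed the p threshold but not the 1.5-fold one. *Foxo3*, *E2f1* and *Myc* are genes that the study names for these same libraries, so their values are not independent of that report.

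Downstream, 12 genes of the pocket proteins and of the DREAM complex, which hold E2F target genes silent when CDKs are inhibited, were all tested, with 1 called higher, 1 lower and a median of -0.06. Among all tested genes 7.28% were called higher and 4.08% lower. *Rbl2*, the pocket protein typical of quiescent cells, rose from 1830.1, 1719 and 1630 to 3109, 3048 and 2959 normalized counts (log2 fold change 0.82, adjusted p = 0.00201 from limma). *Mybl2*, the MYB protein that takes over the complex in cycling cells, fell from 6874, 6602 and 6389 to 3111, 3601 and 2289 (log2 fold change -1.17, adjusted p = 0.00344 from limma). *Rb1* (0.15), *Rbl1* (-0.48, adjusted p = 0.081 from limma, under 1.5-fold), *E2f4* (-0.17), *Tfdp1* (-0.33) and *Rbbp4* (-0.05) were not called.

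*Cdkn1a* was set beside 27 other known p53 targets, of which 24 were tested (*Eda2r*, *Perp* and *Gdf15* were too low). Of these 15 were called higher and 0 lower, against 7.28% and 4.08% of all tested genes, and the median log2 fold change was 0.77. The study reports a raised p53 pathway signature in these same libraries. The counts over this list are thus not independent of that result and are a description. *Trp53cor1* is, like *Cdkn1a*, a gene that the study also names singly for these libraries. *Trp53cor1* and *Mdm2* are counted here again, and *Trp53cor1* reached the test only because of the hnRNPL-deficient libraries. *Phlda3*, an inhibitor of AKT signaling, rose from 75.4, 68.3 and 43.6 to 1414, 1303 and 1261 normalized counts (log2 fold change 4.42), and *Plk2*, a polo-like kinase, from 27.9, 47.5 and 32.1 to 650.0, 586 and 533 (4.03). Both values are above that of *Cdkn1a* (3.34), a difference between genes that was not tested. *Trp53inp1* (2.74), *Zmat3* (2.09), *Ccng1* (1.64), *Tnfrsf10b* (1.58), *Sesn2* (1.47), *Polk* (1.35) and *Fas* (1.01) followed. Smaller increases were seen for *Bax* (0.82), *Sesn1* (0.80), *Btg2* (0.74) and *Ei24* (0.59). The other 9 targets were not called, namely *Bbc3* (0.55), *Gadd45a* (0.45), *Aen* (0.41, adjusted p = 0.069 from limma, under 1.5-fold), *Rrm2b* (0.10), *Plk3* (-0.01), *Ddb2* (-0.02), *Tigar* (-0.16), *Pmaip1* (-0.21) and *Xpc* (-0.26). In hnRNPL-deficient cells *Cdkn1a* was more abundant in normalized counts, which are not corrected for length, than *Phlda3* and *Plk2* and less so than *Ccng1* and *Trp53inp1*, whose lowest hnRNPL-deficient libraries had 26602 and 6799 normalized counts.

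**Figure D5:**
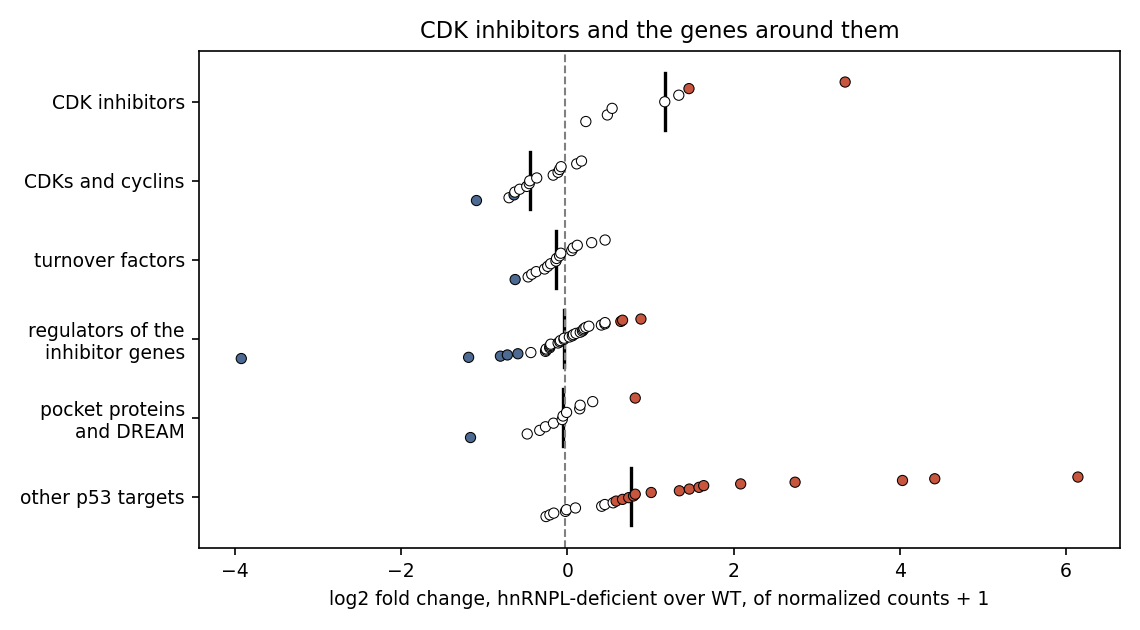
Log2 fold change (hnRNPL-deficient over WT, of normalized counts + 1) of each tested gene of the CDK inhibitors and of 5 lists of genes that act with them, with 1 point per gene, red where called higher, blue where called lower, white where not called, and a bar at each list's median. The medians of the CDK inhibitors (1.17, the value of *Cdkn1c*, and 0.94 without it) and of the other p53 targets (0.77) lie to the right of the dashed line at the median of all tested genes (-0.03), and that of CDKs and cyclins (-0.45) to its left; the leftmost point is *Hnrnpl*.

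Other genes that bear a similar name or restrain CDKs in another way, by phosphorylation or dephosphorylation, were looked at as a contrast. *Wee1*, a kinase that inhibits CDK1 by phosphorylation, fell by 0.66 on the log2 scale (adjusted p = 0.0326 from limma). *Pkmyt1* (-0.59), which acts likewise, *Cdkn2aipnl* (-0.58, adjusted p = 0.0772 from limma, under 1.5-fold), *Cdkn2aip* (0.15) and the phosphatase gene *Cdkn3* (0.01) were not called. Of these 5 genes 0 were called higher and 1 lower, against 7.28% and 4.08% of all tested genes.

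Last, the genes whose log2 levels followed each inhibitor most closely over the 6 libraries were listed, as a description without a test. They were taken from the genes whose mean reached 50 normalized counts, leaving out those with Gm or Rik names. All values share the same libraries and group difference. For *Cdkn1a* the closest were *Psrc1* (Pearson r = 0.9996), *Zfp750* (0.999) and *Tnfrsf10b* (0.998). *Psrc1*, which encodes a microtubule-binding protein, had means of 110.3 in WT and 1455 in hnRNPL-deficient libraries, a fold change of similar size to that of *Cdkn1a*. For *Cdkn2b* they were *Zfp658* (0.997), *Amz2* (0.996) and *Vav3* (0.995). *Zfp658* had a level and a change close to those of *Cdkn2b* (means of 43.8 and 130.2), whereas *Vav3* changed by only 0.32 on the log2 scale. The WT means of *Zfp658* and of *Zfp750* (4.45) were below the minimum of 50. Both genes reached it only because of the hnRNPL-deficient libraries, so their closeness carries no weight as support. For the inhibitors that were not called, the closest genes were *Ankfy1*, *Tmem30a* and *Tmem184c* (*Cdkn1b*), *Lipo2* and *Lztfl1* beside *AC115752.1* (*Cdkn1c*), *Cybb*, *Atp6v0e* and *Ddias* (*Cdkn2a*), *Ankrd40*, *Snw1* and *Mrrf* (*Cdkn2c*), and *Carhsp1*, *Ino80b* and *Dusp3* (*Cdkn2d*), all with r of at least 0.986.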

How the data were processed

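RNA-seq of GFP+ splenic B cells from 3 WT and 3 hnRNPL-deficient mice was analysed, grouped by the labels, with the reporter, strain, sort and ages taken from the methods of the study. The submitters' processing notes name fastp 0.23.1, STAR 2.7.9a, mm10, featureCounts and DESeq2 1.38.2. By its methods the authors counted reads by strand per gene and divided them by DESeq2 size factors, and the deposited values are the normalized counts that result, a signal with decimals. The deposited table also holds the authors' own comparison (log2 fold changes, standard errors, p-values), which was not used.

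Dividing by the value of 1 read gave whole reads for 100% of values (tolerance 0.01). The column of hnRNPL-deficient library 2 was not read by the automatic test for whole reads, so edgeR 4.0.16 (quasi-likelihood, TMM) and DESeq2 1.42.0 were run on the other 5 libraries as alternatives. The main test was limma 3.58.1 (R 4.3.3) with a mean-variance trend on log2(normalized count + 1), for genes whose mean reached 10 normalized counts, with Benjamini-Hochberg adjustment over all 17640 of them. A pseudocount understates the change of low genes. Tests were checked on simulated data.

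Coordinates, exon lengths and neighbors are from a GENCODE annotation of GRCm38, an earlier release than the authors', whose identifiers covered 17615 of the tested genes. Start sites and windows are from RefSeq. Named genes are the 7 inhibitors, tested genes within 100 kb, and called genes and the 6 most abundant genes of each list. The 3 genes most correlated with each inhibitor, leaving out Gm and Rik names, are also named. One gene under this rule is not reported here. *Cdk2*, *Skp1a*, *Skp2*, *Rchy1*, *Cul4a*, *Foxo1*, *Foxo4* and the TGF-β receptors and SMADs were named after their values were seen. So were the genes with a p53 element, and the remaining uncalled p53 targets and genes of like name or action. The members and lists were chosen with earlier results of these data known. Alternatives were other pseudocounts, filters, scalings, variance settings and thresholds, a replicate block, *Xist* as a covariate, and each library left out. Splicing was not analysed here.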

Additional observations from a re-analysis of the deposited data

How the results depend on the processing

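*Cdkn1a* and *Cdkn2b* were called higher, and *Cdkn1b*, *Cdkn2c* and *Cdkn2d* not called, in each of 21 alternatives, and no inhibitor was called lower in any. The other calls moved as follows. *Cdkn2a* (log2 fold change 1.34, adjusted p = 0.112 from limma) was called with libraries scaled to equal totals (1.39, adjusted p = 0.0939) and with the replicate number as a block (1.34, adjusted p = 0.0384). With each library left out in turn its log2 fold change ranged from 1.00 to 1.78, and it was called without WT library 1. *Cdkn1c* was called only by edgeR on 5 libraries (2.19, adjusted p = 0.0935), a test that leaves out the library in which the gene was lowest. The replicate numbers were not taken as pairs, since deviations of same-numbered libraries correlated at 0.429, 0.32 and 0.0663 and WT library 3 correlated better with hnRNPL-deficient library 2 (0.305). The replicate block raised the genes called higher to 1755 and lower to 1018. Over all genes, 1284 were called higher and 719 lower. At an adjusted p under 0.05 and 2-fold these were 610.0 and 216, and without a fold threshold 1406 were lower. Leaving out 1 library gave 830.0 to 1111 higher and 478 to 696 lower genes, the fewest without WT library 3. Equal totals moved the share of higher genes among called ones from 64.1% to 70.2%, quantile normalization to 57.5%. With each scaling 7 of 7 inhibitors had a log2 fold change above 0. Depth limits *Cdkn1c* and *Cdkn2a*, with at most 36 reads per library.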
